A study of Mus musculus with 3 samples.

Results

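The regions described here are 2901 bins of 200 bp on the mouse autosomes that were enriched in CTCF ChIP-BisSeq and lie at promoters. A bin was chosen by its measured coverage: at least 15 observations per listed CpG in each of 2 ChIP-BisSeq replicates, and at most 50 in the whole genome bisulfite library. Its centre also had to lie within 1 kb of the transcription start site (TSS) of a protein-coding gene. These bins are 10.7% of the 27133 enriched bins and 1.26% of the 230078 bins at promoters, out of 7062395 bins with a listed CpG. Because coverage chose them, coverage is given below only as a description. Methylation took no part in the choice.

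CTCF is a zinc finger protein that binds a long DNA motif, acts as an insulator and, together with the cohesin ring, anchors chromatin loops. It binds distal elements and also promoters. Many mammalian promoters are rich in CpGs and stay free of DNA methylation in most cell types, whereas CpG-poor DNA is mostly methylated and loses methylation where transcription factors bind. A CpG inside the CTCF motif can reduce binding when methylated, which is best known from imprinted control regions.

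ChIP-BisSeq combines chromatin immunoprecipitation with bisulfite sequencing, so it reads the methylation of DNA molecules pulled down with CTCF. It was done in 2 replicates with wild type embryonic stem (ES) cells of a mixed 129-C57Bl/6 background. Each replicate pooled the DNA of several immunoprecipitations. WG-BisSeq reads methylation over the whole genome. The only such library used here was of ES cells of a Black Agouti 129 background that lack REST, a repressor of neuronal genes. All ES cells were kept with LIF, on feeder cells or on gelatine, and what feeder cells added to any library was not tested. REST genotype, strain and assay therefore differ together between the ChIP-BisSeq and the WG-BisSeq libraries, and their parts in any difference cannot be told apart. The libraries held 13411280 and 25262179 observations for ChIP-BisSeq and 273375318 for REST knockout cells. An observation is 1 read of the methylation state of 1 CpG.

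Positions of the bins were unequal along the promoter. Of the 2901 bins, 1942 (66.9%) were centred upstream of the nearest TSS, against 47.1% of all promoter bins. The 200 bp just upstream of the TSS held 906 enriched bins, 3.28% of the promoter bins there. The next 200 bp downstream held 438 (1.48%), and between 200 and 1000 bp downstream the share lay between 0.496% and 0.612%. The 2901 bins formed 2056 runs of adjacent bins, of which 1270 were single bins and the longest had 4, so neighbouring bins share fragments and are not independent. They belonged to 2075 of 21410 protein-coding genes (9.69%).

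**Figure D1:**
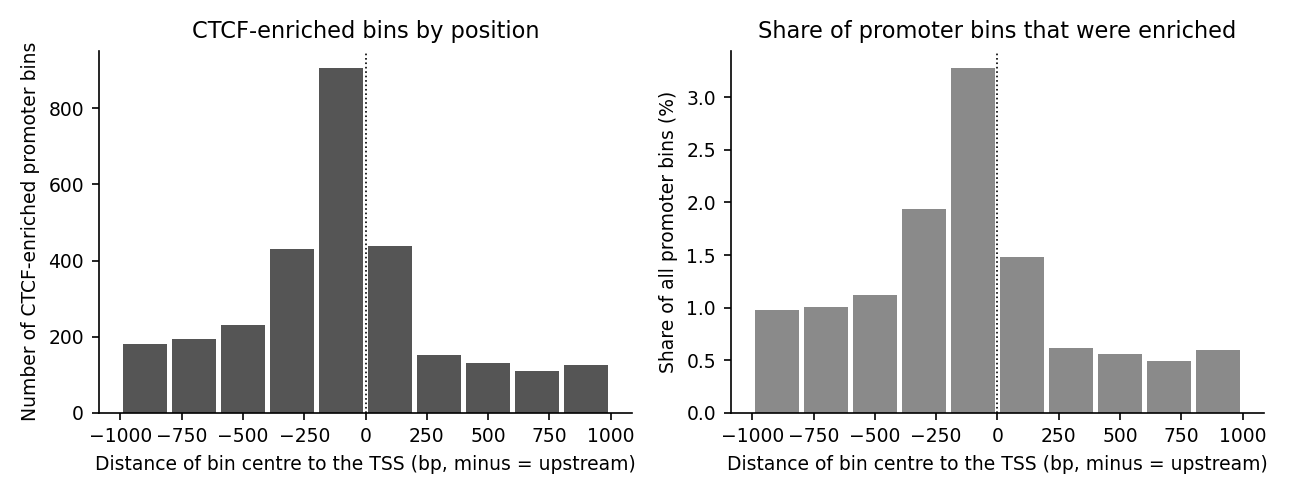
Number of CTCF-enriched promoter bins (left) and their share of all promoter bins in percent (right), in steps of 200 bp of distance from the bin centre to the nearest TSS (minus is upstream). The step from -200 to 0 bp is the highest in both panels, with 906 bins and 3.28%.

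By the GENCODE annotation, 519 of the bins (17.9%) overlapped a coding exon, 714 (24.6%) an untranslated region but no coding exon, 100 (3.45%) another exon only and 533 (18.4%) only an intron, and 1035 (35.7%) overlapped no gene. In sequence the bins were richer in GC and in CpGs than distal CTCF-enriched bins and than promoter bins as a whole. Their median GC content was 57.5%, compared with 48.5% in the 24232 enriched bins farther than 1 kb from a TSS (distal bins below) and 50.5% in all promoter bins. They held a median of 9 CpGs, against 3 in distal bins and 4 in all promoter bins. Motif shares refer to bins of 200 bp with a match on either strand. The GC box GGGCGG, bound by SP1 and related factors, was present in 29.4% of the bins, 6.32% of distal bins and 16.5% of all promoter bins. The ETS motif CCGGAA was present in 11.3%, 3.47% and 6.16%, and the NRF1 motif GCATGCGC in 2.24%, 0.491% and 0.740%. The TATA box letters TATAAA were less frequent, in 4.76% of the bins against 9.91% of distal bins and 8.50% of all promoter bins. The CCAAT box CCAAT was found in 19.9%, 21.8% and 21.8%.

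An exact match to the CTCF consensus was present in 389 of 2901 bins (13.4%, 95% exact binomial interval 12.2 to 14.7). The share was 30.1% in distal bins, 0.555% in all promoter bins and 0.390% in promoter bins that were not enriched. With 1 mismatch allowed it was 37.7% at enriched promoters and 58.3% in distal bins. The share was higher at stronger enrichment, from 4.89% in the lowest of 4 equal groups of tested bins by ChIP-BisSeq coverage relative to each library's mean, to 17.3% in the highest. Among 385 bins with a single match, 273 had it upstream of the TSS. Of these, 99 (36.3%, interval 30.6 to 42.3) lay on the strand of the gene, against 308 of 586 upstream matches (52.6%, interval 48.4 to 56.7) in promoter bins outside the set. Downstream of the TSS 57 of 112 matches (50.9%, interval 41.3 to 60.5) lay on the gene's strand, against 116 of 301 (38.5%, interval 33.0 to 44.3). Differences between these shares were not tested, since the bins share fragments and starts.

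The following sites show the exact matches in bins that differ most in methylation below: bins low in all libraries (Rplp0, Acbd4), bins called lower in ChIP-BisSeq than in REST knockout cells (Socs3, Tmem232), methylated bins (Ramp1, Ppef2) and a bin higher in ChIP-BisSeq (Tnni3). Each is read 5′ to 3′ on the strand of the match from mm9 (NCBIM37), and capitals mark the 13 bases of the core.
Rplp0, chr5:116009296-116009315, minus strand: ctgcTGCCCTCTGCTGGgtc
Acbd4, chr11:102964126-102964145, minus strand: ctcgCGCCCCCTGGTGGaaa
Socs3, chr11:117831385-117831404, minus strand: agcgCGCCCTCTGGTGGact
Tmem232, chr17:65890539-65890558, minus strand: aactCGCCCCCTTGTGGtta
Ramp1, chr1:93075786-93075805, minus strand: ctgcTGCCACCTTCTGGcca
Ppef2, chr5:92681257-92681276, plus strand: ctgaCGCCCTCTTCTGGcat
Tnni3, chr7:4476002-4476021, plus strand: atggTGCCCTCTTGTGGctt

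The context of a site is shown for 2 whole bins upstream of their genes, that of Rplp0, low in every library, and that of Tmem232, low in replicate 2 only. Both are read on the plus strand of mm9, with the core of the match in capitals. The bin of Rplp0 holds 13 CpGs and that of Tmem232 holds 4.
Rplp0, chr5:116009200-116009399: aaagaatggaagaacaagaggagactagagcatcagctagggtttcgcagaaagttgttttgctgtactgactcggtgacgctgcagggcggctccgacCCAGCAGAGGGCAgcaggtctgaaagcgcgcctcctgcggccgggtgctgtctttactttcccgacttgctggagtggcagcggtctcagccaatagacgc
Tmem232, chr17:65890400-65890599: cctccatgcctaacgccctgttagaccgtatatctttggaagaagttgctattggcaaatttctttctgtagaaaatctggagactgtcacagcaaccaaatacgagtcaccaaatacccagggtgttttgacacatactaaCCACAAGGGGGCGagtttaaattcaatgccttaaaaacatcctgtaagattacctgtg

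Coverage was high by the rule. The median bin had 30.9 observations per CpG in replicate 1, which is 39.6 times the mean of that library, and 41.1 in replicate 2, which is 27.8 times. In REST knockout cells the median was 17.6, or 1.10 times the mean. That mean is raised by bins of extreme coverage, 1 of which held 55402158 of 269197011 autosomal observations. The median REST knockout coverage was 9 in all promoter bins and 5.86 in distal bins. Just outside the limit, 146 promoter bins with a lower coverage of 14 to 15 had median methylation levels of 2.81%, 4.79% and 6.63% in replicate 1, replicate 2 and REST knockout cells. Just inside it, 148 bins at 15 to 16 had 2.45%, 4.62% and 8.26%. A further 156 promoter bins met the ChIP-BisSeq limits but were left out for a REST knockout coverage above 50.

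Ranked by the lower of its 2 coverages, each relative to the mean of its library, the most enriched bin lay upstream of Acbd4, an acyl-CoA binding protein, at chr11:102964000-102964199. It contains the match shown above. Replicate 1 read 61 of 3655 observations as methylated (1.67%), replicate 2 read 261 of 8118 (3.22%) and REST knockout cells 12 of 297 (4.04%). The adjacent bin read 16 of 1373 (1.17%), 111 of 3421 (3.24%) and 7 of 150 (4.67%). Of the 8 most enriched bins by this rank, which lay at Acbd4, Gbas, Med4 (a Mediator subunit), Rapgef1 (an activator of Rap1), H2-DMa (a peptide loader of MHC class II) and Top1mt (the mitochondrial topoisomerase), 7 were below 6% in all libraries. At Top1mt (chr15:75509800-75509999, 670 bp upstream) replicate 1 read 13 of 809 observations as methylated (1.61%), replicate 2 read 37 of 1872 (1.98%) and REST knockout cells 18 of 95 (18.9%).

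For methylation, the counts of a bin were summed over its CpGs. A bin was tested when it had at least 20 observations in each library, which 2445 of the 2901 bins did. The other 456 fell short, 451 of them in REST knockout cells, and 28 had no observation there. They were CpG-poor, with a median of 2 CpGs and 327 of them holding at most 3. Summed over them, 14.4% of observations were methylated in replicate 1, 12.6% in replicate 2 and 32.9% in REST knockout cells. The tested bins thus leave out most of the CpG-poor ones.

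Most CTCF-enriched promoter bins were nearly unmethylated in every library. The median over the 2445 tested bins was 2.45% in replicate 1 (quartiles 1.22 and 5.71), 4.06% in replicate 2 (2.59 and 6.50) and 6.57% in REST knockout cells (3.13 and 13.6). Below 10% were 84.3%, 86.5% and 65.4% of the bins. Low levels were not particular to enriched bins. Of tested promoter bins that were not enriched, 87.6%, 83.0% and 84.2% were below 10%, with a REST knockout median of 3.95%. Only 9.05% of those bins were tested. Of these 20561, 14161 held at least 16 CpGs, against 798 of the 2445. Distal bins were more methylated, with medians of 17.8%, 13% and 22.2%. Levels were lower in bins with more CpGs. Bins with 1 to 3 CpGs had medians of 11.2%, 9.25% and 16.9%, and bins with at least 16 CpGs 1.71%, 3.75% and 3.46%. Distal bins of equal CpG number were higher at each step. At 4 to 7 CpGs, for example, promoter bins had medians of 5.48%, 5.15% and 13.2%, and distal bins 19.5%, 14.2% and 24.4%.

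**Figure D2:**
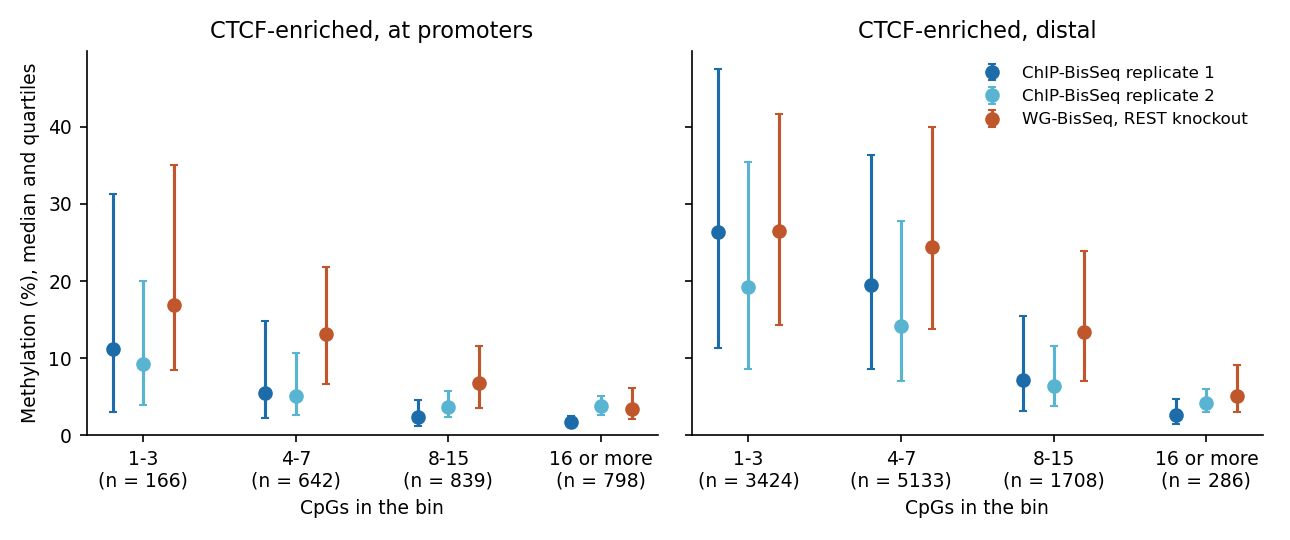
Methylation in percent (points are medians over bins, bars reach from the first to the last quartile) by the number of CpGs in a bin, for CTCF-enriched bins at promoters (left) and distal ones (right), in the 3 libraries. Levels fall from left to right in both panels, at promoters from 16.9% to 3.46% in REST knockout cells.

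Position within the promoter showed the same order. In the 200 bp upstream of the TSS the medians were 2.13%, 3.87% and 5.30%. Between 800 and 1000 bp upstream they were 4.79%, 5.92% and 12.2%, and at the same distance downstream 7.32%, 5.91% and 14.6%. The number of CpGs moves with position, from a median of 12 per bin just upstream of the TSS to 4 at 800 to 1000 bp upstream. Its part in the difference was not tested.

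Around the bins, aligned to the direction of the gene, methylation of REST knockout cells had a median of 61.5% at 2000 bp upstream, 24.7% at 400 bp, 11.5% at 200 bp, 7.14% in the bin itself and 6.24% 200 bp downstream. Farther downstream it was 8.74% at 600 bp, 20.0% at 1000 bp and 57.9% at 2000 bp. The bins therefore sat nearer to the upstream edge of the unmethylated stretch. The medians include bins with at least 10 observations. ChIP-BisSeq coverage had fallen to medians of 8.2 and 12 by 200 bp upstream, and 8 and 11.2 by 200 bp downstream. Measured from coding starts with at least 8 CpGs in their own bin instead, profiles were close with and without an enriched bin within 1 kb. The median of REST knockout cells at the start was 4.07% at 2757 starts with one and 4.35% at 21279 starts without, and 1000 bp upstream it was 41.7% and 34.3%.

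**Figure D3:**
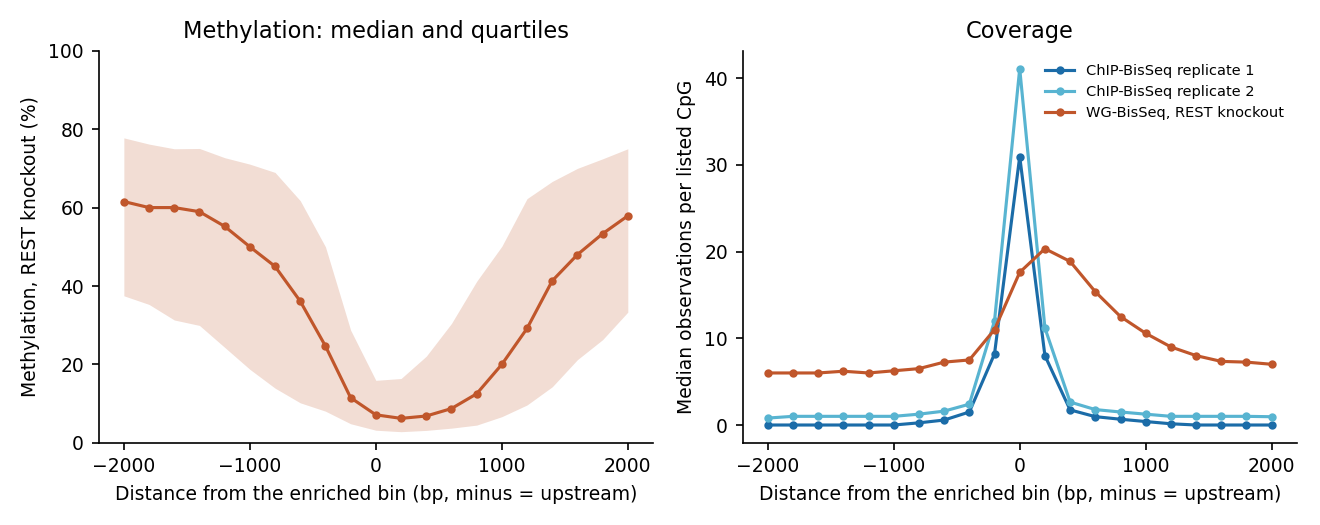
Left, methylation of REST knockout cells in percent (line, median; band, quartiles) by distance from the enriched bin in bp, with upstream of the gene to the left. Right, median observations per listed CpG in the 3 libraries. Methylation is 7.14% in the bin and 61.5% at 2000 bp upstream, and ChIP-BisSeq coverage falls to 8.2 and 12 at 200 bp upstream.

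CpGs inside the consensus match had lower median levels than the rest of the bin. In 161 bins with covered CpGs both inside and outside, the median was 0.510% inside and 2.47% outside in replicate 1, 2.56% and 4.15% in replicate 2, and 4.76% and 6.94% in REST knockout cells. The level inside was the lower in 117, 123 and 110 of the 161 bins. It rested on a median of 95, 112 and 30 observations, and was 0 in 77, 31 and 39 of the bins. How far such sparse counts lower the inside medians was not tested. Summed over these bins, REST knockout cells had 5.86% inside and 5.82% outside, so that there the sign differs between medians and sums. At Acbd4 the 2 CpGs of the match had 0 of 576 methylated observations in replicate 1, 48 of 1260 in replicate 2 and 1 of 32 in REST knockout cells. A count of 0 allows a level of up to 0.521%, for counting error only. At Ppef2 the single CpG of the match had 3 of 7, 8 of 17 and 4 of 5.

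The ChIP-BisSeq replicates differed by few percentage points at most of these bins. Their difference was below 20 percentage points in 98.2% of the tested bins. The methylated and unmethylated counts of each bin were compared by Fisher's exact test, and p-values were adjusted after Benjamini and Hochberg over all 48375 autosomal bins tested. By this test 42 of 2445 bins (1.72%) were called different, at an adjusted p under 0.05 and a difference of at least 20 points. Over all tested bins 9.21% were called. Replicate 1 was the higher in 38 of the 42. Across the 2445 bins Pearson's r between replicates was 0.851 (Spearman's rank correlation 0.508), and r with REST knockout cells was 0.654 and 0.619. In distal bins Pearson's r and Spearman's rank correlation between replicates were both 0.849. These are descriptions across bins, which share libraries and base composition. The most different bin lay at Sf1, which encodes splicing factor 1 (chr19:6374000-6374199, 29 bp upstream, coding exon). It had 52 of 66 methylated observations in replicate 1 (78.8%), 29 of 135 in replicate 2 (21.5%) and 14 of 25 in REST knockout cells (56.0%), with an adjusted p between replicates of 4.47e-12. At Ppa2, a mitochondrial pyrophosphatase, replicate 1 had 23 of 51 (45.1%), replicate 2 had 1 of 78 (1.28%) and REST knockout cells 4 of 65 (6.15%), with an adjusted p of 3.64e-08. Such bins were CpG-poor, with a median of 4 CpGs over the 42.

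The study asked whether molecules bound by CTCF carry the methylation of the whole population. Its own test used a wild type WG-BisSeq library that is not used here, mainly at CTCF motifs in regions of low methylation. The paper reported no global difference there. For the promoter bins each replicate could be compared only with REST knockout cells, which is not the same test. The comparison made here is between libraries, not conditions, and there is 1 WG-BisSeq library. In both replicates, 2226 of 2445 bins (91.0%) were within 20 points of the REST knockout level. The share was 92.8% in promoter bins that were not enriched and 71.2% in distal bins. Only 373 of the 2445 bins had a REST knockout level from which a drop of 20 points is possible. The share of 91.0% therefore says little about whether bound molecules differ. A lower call needed an adjusted p under 0.05 and a level at least 20 points below REST knockout cells in each replicate, and a higher call the converse. Called lower were 102 bins (4.17%, interval 3.41 to 5.04), against 3.49% of all tested bins. The share is 8.26% in distal bins and 1.22% in promoter bins that were not enriched. These shares depend on how many bins reach the REST knockout level that a call needs, given below. With no limit on the difference, 739 bins (30.2%) were lower in both replicates at an unadjusted p under 0.05, against 10.9% of all tested bins. Such a p depends on how many observations a bin has, and these bins were chosen for high ChIP-BisSeq coverage. How much of the gap between 30.2% and 10.9% comes from depth was not tested. The same limit holds where these shares are set beside the gene lists below. Called higher were 8 bins (0.327%), against 1.71% of all tested bins. The median difference from REST knockout cells was -2.87 points in replicate 1 and -2.13 in replicate 2. Such a shift was not particular to these bins. It was -2.54 and -1.55 points in promoter bins that were not enriched, and -2.27 and -5.56 in distal bins.

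The 102 bins called lower were spread over 100 genes and 18 chromosomes. Their median methylation was 3.397% in replicate 1, 4.29% in replicate 2 and 34.7% in REST knockout cells, and in 81 of them both replicates were below 10%. A lower call needs a REST knockout level of at least 20%, which 373 tested bins had. Of these, 27.3% were called lower. At that level the share was 14.9% of 5852 distal bins and 21.0% of 1198 promoter bins that were not enriched. Both replicates were below 10% in 149 of the 373. The called bins held a median of 6 CpGs, 72 (70.6%) were upstream of the TSS, and their REST knockout observations ranged from 20 to 349 with a median of 39.5, so that single REST knockout values have wide intervals.

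**Figure D4:**
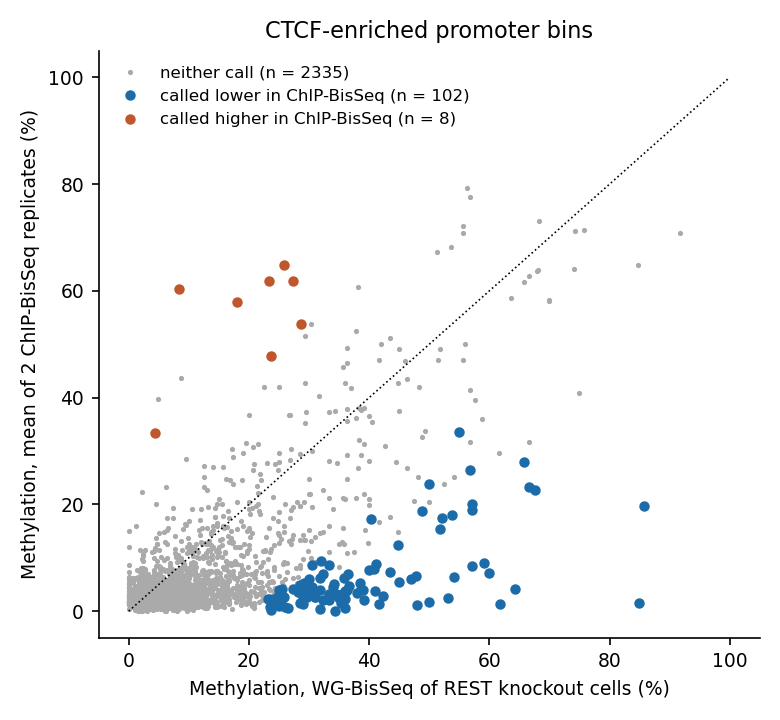
Mean methylation of the 2 ChIP-BisSeq replicates against that of REST knockout cells, both in percent, for the 2445 tested CTCF-enriched promoter bins. Blue points mark the 102 bins called lower in ChIP-BisSeq and red points the 8 called higher, and the dotted line marks equal levels.

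The largest difference was at Dhrs4, a reductase of retinoids and steroids, in a bin that overlaps an untranslated region and is centred 95 bp upstream of the nearest start (chr14:56097400-56097599). Replicate 1 had 1 methylated of 219 observations (0.457%, interval 0.0116 to 2.52), replicate 2 had 6 of 217 (2.76%, interval 1.02 to 5.92) and REST knockout cells had 28 of 33 (84.8%, interval 68.1 to 94.9). The mean difference was -83.2 ± 1.63 points (SD, n = 2), with adjusted p of 9.06e-28 and 1.70e-23 by Fisher's exact test. The SD here and below is the spread between the 2 replicates. Both are set against the same REST knockout value, and the SD holds none of its error. The intervals of the replicates and of REST knockout cells are far apart. The 33 REST knockout observations came from 10 CpGs with 3 to 5 observations each. CpGs on 1 read are counted as independent here, so the interval may be too narrow and the p-values too small.

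At Tmem232 (chr17:65890400-65890599, 378 bp upstream, no gene), shown above, replicate 1 had 27 of 84 (32.1%), replicate 2 had 7 of 95 (7.37%) and REST knockout cells 18 of 21 (85.7%). Here the replicates also differed from each other, with an adjusted p of 0.000727. The single CpG of its match had 4 of 36, 1 of 50 and 4 of 4 methylated observations. At Rint1, which acts in transport between the endoplasmic reticulum and the Golgi (chr5:23293200-23293399, 229 bp upstream), the counts were 1 of 70 (1.43%), 1 of 85 (1.18%) and 34 of 55 (61.8%). The difference was -60.5 ± 0.178 points (SD, n = 2), while the interval of the REST knockout level was 47.7 to 74.6.

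Socs3, the feedback inhibitor of the JAK-STAT pathway through which LIF acts, had a called bin 800 bp upstream (chr11:117831200-117831399). Replicate 1 had 7 of 436 methylated observations (1.61%), replicate 2 had 18 of 533 (3.38%) and REST knockout cells 17 of 32 (53.1%), with adjusted p of 1.10e-14 and 1.54e-12 by Fisher's exact test. Its 2 CpGs within the match had 2 of 182, 3 of 186 and 2 of 12. At Abcb8, a mitochondrial transporter, the levels were 6.36%, 10.4% and 57.1% with 12 of 21 observations methylated in REST knockout cells. The remaining bins among the 8 with the largest differences lay at Bivm, with 4.05%, 4.41% and 64.3%, at Gm98, with 4 of 84, 28 of 298 and 12 of 20 observations methylated, and at Pcdhb7, with 8.64%, 9.40% and 59.1%.

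**Figure D5:**
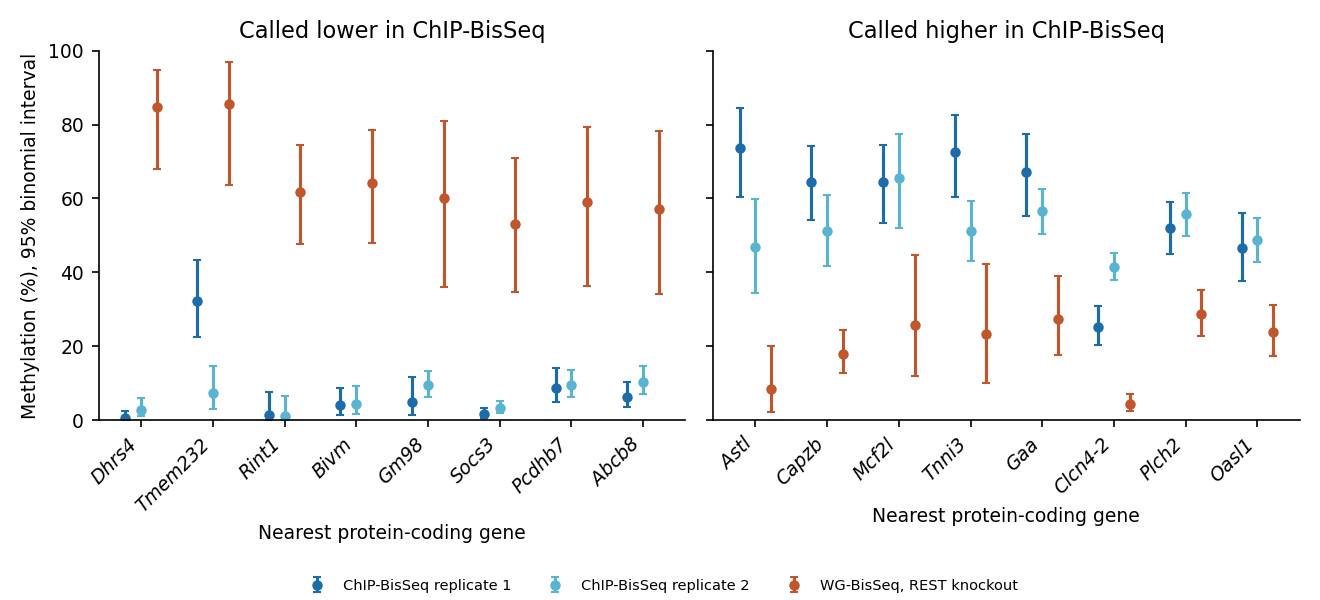
Methylation in percent with 95% exact binomial intervals in the 3 libraries, for the 8 bins called lower in ChIP-BisSeq with the largest difference (left) and the 8 called higher (right), named by the nearest protein-coding gene. At Dhrs4 the replicates are at 0.457% and 2.76% and REST knockout cells at 84.8%, and at Astl at 73.7%, 46.9% and 8.33%.

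All 8 bins called higher had at least 25.3% methylation in both replicates and at most 28.6% in REST knockout cells. The largest difference was at Astl, the egg protease that hardens the zona pellucida (chr2:127166800-127166999, 466 bp upstream, in an intron). Replicate 1 had 42 of 57 methylated observations (73.7%), replicate 2 had 30 of 64 (46.9%) and REST knockout cells 4 of 48 (8.33%). The difference was 51.9 ± 19 points (SD, n = 2), with adjusted p of 4.39e-10 and 0.000130 by Fisher's exact test. Capzb, a subunit of the actin capping protein, had 62 of 96 (64.6%), 58 of 113 (51.3%) and 32 of 178 (18%). The next bin upstream of it was among those in which replicates differed, with 16 of 24 (66.7%), 6 of 47 (12.8%) and 2 of 41 (4.88%).

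Tnni3, cardiac troponin I, had 50 of 69 methylated observations (72.5%), 79 of 154 (51.3%) and 7 of 30 (23.3%), and the replicates differed from each other, with an adjusted p of 0.0243. Clcn4-2, a chloride and proton exchanger, had 70 of 277 (25.3%), 319 of 768 (41.5%) and 15 of 345 (4.35%). The others lay at Mcf2l, a guanine nucleotide exchange factor, at Gaa, the lysosomal alpha-glucosidase, at Plch2, a phospholipase C, and at Oasl1. There the replicates lay between 46.7% and 67.1% and REST knockout cells between 23.8% and 28.6%.

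Enrichment was not limited to unmethylated bins. More than 60% methylation was found in 28 of 2445 bins in replicate 1, in 15 in replicate 2 and in 23 in REST knockout cells. At Gigyf1 (chr5:137959600-137959799, 408 bp upstream, in an intron) replicate 1 had 46 of 66 methylated observations (69.7%), replicate 2 had 43 of 59 (72.9%) and REST knockout cells 26 of 35 (74.3%). At Spnb1, the beta spectrin of red cells, the counts were 54 of 74 (73.0%), 99 of 135 (73.3%) and 82 of 120 (68.3%). In both, no difference between libraries was called, and the intervals of the 3 libraries overlap.

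At Ramp1, a partner of the calcitonin receptor-like receptor, with the match shown above, the counts were 50 of 77 (64.9%), 65 of 103 (63.1%) and 40 of 54 (74.1%). This match contains no CpG. At Ppef2, a phosphatase of the retina, they were 80 of 93 (86.0%), 43 of 77 (55.8%) and 22 of 24 (91.7%), and the replicates were called different with an adjusted p of 0.000337. Ank1, ankyrin of red cells, had 92 of 169 (54.4%), 1249 of 1414 (88.3%) and 144 of 190 (75.8%). Fam38a, a mechanosensitive channel also named Piezo1, had 76.7%, 81.8% and 56.2%, Rasa4 had 64.2%, 65.4% and 84.8%, and Lrrc47 had 92.3%, 62.9% and 56.8%. In all 8 of these bins there were at most 6 CpGs.

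Clustered protocadherins are cell surface adhesion proteins, and many of their promoters bind CTCF and are chosen at random in single neurons. They were the gene list with the largest share. An enriched bin lay at 21 of 24 genes (87.5%), against 9.69% of all genes. The annotation joins the alternative starts of the alpha cluster and of the gamma cluster in few gene records, so that Pcdha11 had 11 bins, the most of any gene, and Pcdhgc5 had 6, as many as Plec. Of the 39 bins, 18 were tested and 5 were called lower, at Pcdha11, Pcdhb7, Pcdhb11 and, with 2 bins, Pcdhgc5, against 4.17% of the tested CTCF-enriched promoter bins and 3.49% of all tested bins. At an unadjusted p under 0.05, 10 of the 18 were lower in both replicates, where the shares were 30.2% and 10.9%. Their median was 5.66%, 4.85% and 20.6% in replicate 1, replicate 2 and REST knockout cells, against 2.45%, 4.06% and 6.57% over all tested bins.

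At Pcdhb11 replicate 1 had 3 of 94 methylated observations (3.19%), replicate 2 had 4 of 128 (3.12%) and REST knockout cells 22 of 65 (33.8%). Summed over all 39 bins, untested ones included, 7.63% of observations were methylated in replicate 1, 7.10% in replicate 2 and 21.7% of 1376 in REST knockout cells. The sums were 8.17%, 7.69% and 21.6% in the 13 bins of the alpha cluster, 9.59%, 8% and 23.3% in the 20 of the beta cluster and 4.15%, 4.58% and 19.3% in the 6 of the gamma cluster. An exact consensus match was present in 2 of the 39 bins. Levels of single bins varied. In REST knockout cells Pcdhb17 had 7 of 53 methylated observations (13.2%) with 13.2% and 11.8% in the replicates, and no difference was called.

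Ribosomal protein genes also had a high share, 23 of 79 genes (29.1%) with 37 bins. Of 31 tested bins 2 were called lower, against 4.17% of the tested CTCF-enriched promoter bins and 3.49% of all tested bins. At an unadjusted p under 0.05 by Fisher's exact test, 14 were lower in both replicates, where the shares were 30.2% and 10.9%. The medians were 1.83%, 3.03% and 6.05%. Rplp0 (chr5:116009200-116009399, 176 bp upstream) had 40 of 1249 methylated observations (3.20%), 46 of 1964 (2.34%) and 10 of 400 (2.50%). It was low in every library, and its match contains no CpG.

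Among 29 genes of CTCF, cohesin and their regulators, 6 had a bin: Ctcf itself, the cohesin subunits Smc3 and Stag1, the cohesin regulators Pds5a and Pds5b, and the acetyltransferase Esco1. All 10 bins were tested and 0 were called by Fisher's exact test. Lower calls were 4.17% of the tested CTCF-enriched promoter bins and 3.49% of all tested bins. At an unadjusted p under 0.05 by the same test, 0 were lower in both replicates, where the shares were 30.2% and 10.9%. The medians were 1.97%, 3.57% and 2.80%. Ctcf, 221 bp downstream of its start, had 8 of 504 methylated observations (1.59%), 101 of 980 (10.3%) and 22 of 714 (3.08%). Both Stag1 bins contained an exact match, and the first had 19 of 1156 (1.64%), 25 of 1075 (2.33%) and 18 of 972 (1.85%).

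Imprinted genes, expressed from 1 parental allele, had a bin at 7 of 44 genes. Of the 7 tested bins 0 were called at the 20 point limit. Lower calls were 4.17% of the tested CTCF-enriched promoter bins and 3.49% of all tested bins. At an unadjusted p under 0.05 by Fisher's exact test, 5 were lower in both replicates, where the shares were 30.2% and 10.9%. Adjacent bins at H13, which share fragments, were among the 5. The medians were 1.93%, 1.97% and 15.8%. At Mest, an imprinted hydrolase, the bin 950 bp upstream of the nearest start had 0 of 266 methylated observations, 4 of 245 (1.63%) and 35 of 221 (15.8%), with adjusted p of 3.26e-11 and 4.28e-07 by Fisher's exact test. A count of 0 of 266 allows a level of up to 1.13%, for counting error only. Grb10, an adaptor of the insulin receptor, had 11 of 570 (1.93%), 64 of 1110 (5.77%) and 179 of 879 (20.4%), with adjusted p of 3.96e-26 and 1.48e-20. These differences were under 20 points. Zim1, named here after its values were seen, had 18 of 32 (56.2%), 23 of 38 (60.5%) and 14 of 20 (70.0%), and was methylated in each library.

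Hox genes had 11 bins at 7 of 40 genes, with medians of 1.31%, 3.64% and 7.57%. By Fisher's exact test 0 of the 11 were called. Lower calls were 4.17% of the tested CTCF-enriched promoter bins and 3.49% of all tested bins. At an unadjusted p under 0.05 by the same test, 4 were lower in both replicates. That is close to the 30.2% of all tested CTCF-enriched promoter bins, and the share over all tested bins was 10.9%. Of 33 germline genes, whose promoters are methylated in most somatic cells, Sycp2 and Dazl had a bin. Sycp2, a component of the synaptonemal complex, had 70 of 165 (42.4%), 122 of 394 (31.0%) and 18 of 67 (26.9%), and Dazl, an RNA binding protein of germ cells, had 4.24%, 10.2% and 10.1%. Of 26 pluripotency genes, Mycn and Sall4 had bins, all below 14% in every library. Of 19 genes of DNA methylation, Gadd45b and Mbd1 had a bin. Gadd45b, 936 bp upstream, was called lower, with 7 of 372 (1.88%), 12 of 483 (2.48%) and 13 of 56 (23.2%).

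REST target genes are repressed by REST outside neurons, and REST was absent from the WG-BisSeq cells only. A bin lay at 4 of 28 such genes (Scn3a, Scn2a1, Bdnf and Kcnip2), and 2 of the 5 bins were tested. By Fisher's exact test 0 were called. Lower calls were 4.17% of the tested CTCF-enriched promoter bins and 3.49% of all tested bins. At an unadjusted p under 0.05 by the same test, 1 bin was lower in both replicates, where the shares were 30.2% and 10.9%. Kcnip2, a partner of potassium channels, had 10 of 346 (2.89%), 27 of 686 (3.94%) and 33 of 169 (19.5%), with adjusted p of 5.52e-08 and 1.53e-08 and differences under 20 points. Bdnf, a neurotrophin, had 3.08%, 6.00% and 5.75%. Scn2a1 had no REST knockout observation.

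Other lists had small shares. Zinc finger genes had 32 bins at 27 of 362 genes (7.46%). Of their 27 tested bins 1 was called lower, against 4.17% of the tested CTCF-enriched promoter bins and 3.49% of all tested bins. Histone genes had 4 bins at 4 of 79 genes and olfactory receptor genes 3 bins at 3 of 1106 (0.271%). Among the histone bins, Hist1h4j had 0 of 138, which allows up to 2.17%, 3 of 263 (1.14%) and 2 of 80 (2.50%). H2afy2 had 8.57%, 6.24% and 12.8%, H3f3b had 3.34%, 4.65% and 3.82%, and Hist2h4, not tested, had 5 of 107, 3 of 150 and 3 of 15 methylated observations. Olfactory receptor bins were the most methylated of the lists, with sums of 35.3%, 23.7% and 23.8%.

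Bins with a single CpG were 129 of the 2901. The most enriched of them, 657 bp upstream of Gse1, had 4 of 129 methylated observations in replicate 1 (3.10%), 3 of 165 in replicate 2 (1.82%) and 2 of 22 in REST knockout cells (9.09%). At Prmt3, an arginine methyltransferase, the counts were 0 of 88, which allows a level of up to 3.41%, 4 of 92 (4.35%) and 2 of 23 (8.70%). Another, at the cold sensor Trpm8, had 1 of 43 (2.33%), 4 of 82 (4.88%) and 3 of 17 (17.6%). Of the 8 most enriched bins with a single CpG, 5 were below 10% in both replicates, these 3 and those of A430107O13Rik and Rpl35. The other 3 were not, with 5.80% and 13.7% in replicate 1 and replicate 2 at Gm7075, 13.2% and 4.49% at Fam115c and 24.1% and 12% at Gm15401. Genes with several bins outside the protocadherins were Plec (plectin, a linker of the cytoskeleton, 6 bins), 8030462N17Rik (4) and Cdk5rap3 (4). At Cdk5rap3 the 4 bins were at most at 3.67% in the replicates and between 2.17% and 5.00% in REST knockout cells.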

How the data were processed

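CTCF ChIP-BisSeq (2 libraries) and WG-BisSeq of REST knockout ES cells (1 library) were used. The authors deposited counts, not normalized, for each CpG with at least 1 observation: total observations and methylated observations, at the cytosine on the plus strand. The submitters' processing notes name Bowtie 0.10.0.1 and the build mm9. Removal of PCR duplicates and combination of strands are not given in the sources used here. Libraries were amplified by 18 (ChIP-BisSeq) or 10 (WG-BisSeq) cycles of PCR, and Drosophila Kc carrier DNA was added to the ChIP-BisSeq libraries. All intervals and floors (3 counts) cover counting error only, since reads of 1 PCR product are not independent molecules. CpGs on 1 read are not independent either, but the intervals and Fisher's exact test count each as its own observation.

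Counts were summed over bins of 200 bp, floor(position/200), on 19 autosomes. Coverage is the sum of observations divided by the CpGs listed in any library. All listed positions were checked against the reference, and 0 were not the C of a CpG. TSS are the starts of protein-coding transcripts in GENCODE vM1. Bins are named by the gene with the nearest TSS and annotated by any overlap, coding exons first. The CTCF consensus was searched on both strands in a frame of 20 bp and assigned to the bin of the middle of its 13 bp core. Bins with at least 20 observations in each library were compared by two-sided Fisher's exact test, each replicate alone against REST knockout cells, with Benjamini-Hochberg adjustment over 48375 bins. In a test on simulated data at the real totals, 200 of 48307 bins were changed by 40 percentage points, of which 79.0% were called, with 0 false calls. The simulated observations were independent, without linked CpGs, PCR copies or spread between libraries. The result therefore does not give the rate of false calls in the real data, where 9.21% of bins were called different between replicates. Where nothing says that the 2 replicates came from separate cultures, their spread may be technical.

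The bins named are those with the 8 largest differences in each direction, the 8 most methylated, the 8 with the highest coverage, the 5 genes with the most bins, up to 6 per gene list, the 5 with the largest difference between replicates, and the 8 with the fewest CpGs. The members and lists were chosen with earlier results of these data known. Alternatives were other limits for coverage, observations, difference and distance, starts of gene records, other match rules and leaving out each replicate. Sex chromosomes and mitochondrial DNA were not used here. Python 3.11.15, NumPy 2.4.6, pandas 2.3.3, SciPy 1.17.1 and matplotlib 3.10.9 were used.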

Additional observations from a re-analysis of the deposited data

How the results depend on the processing

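The counts of 102 lower, 8 higher and 42 replicate calls moved with the limits for observations, difference, coverage and distance. With at least 50 observations 37, 5 and 13 bins were called. A difference of 10 points gave 271 lower and 110 replicate calls, and 10 higher. A ChIP-BisSeq coverage of at least 10 gave 16 higher and 74 replicate calls, and one of at least 30 gave 55, 2 and 9. Within 500 bp of a TSS the calls were 62, 4 and 25. Starts of gene records gave 3 higher and 21 replicate calls, and a REST knockout coverage of at most 25 gave 4 higher calls. Leaving out 1 replicate in turn gave 135 to 149 lower and 11 to 24 higher calls, the 24 without replicate 2. The rise there follows from the construction, since a call then needs only the other replicate. For the other changes the cause was not tested. The 16 named calls stayed called in all 70 repeats that could be made, but this follows largely from the construction. A call at the main limits in both replicates also passes a limit of 10 points, and the rule for 1 replicate alone. Another minimum of observations left the counts and the difference of a bin unchanged and altered only the adjustment of p. The 70 repeats therefore say little about how stable these calls are. With at least 50 observations only 6 of the 16 could be tested.

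The number of bins was 1442 at a ChIP-BisSeq coverage of at least 30 and between 3083 and 4211 without 1 replicate. The share with a consensus match, 13.4%, was 11.3% and 18.3% at a coverage of at least 10 and 30, 15.9% at a REST knockout coverage of at most 25, 10.9% within 500 bp, 11.5% to 13.1% without 1 replicate, 20.0% with a match within 100 bp of the bin and 37.7% with 1 mismatch.

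The shares below 10% methylation in replicate 1, replicate 2 and REST knockout cells were 82.5%, 84.4% and 64.9% at a coverage of at least 10, 89.6%, 92.2% and 68.3% at 30, 79.1%, 81.7% and 51.1% at a REST knockout coverage of at most 25, 88.6%, 90.03% and 71.5% within 500 bp, and 86.9%, 88.9% and 67.7% for gene records. Without 1 replicate they were 80.9% to 83.6%, 82.9% to 85.9% and 64.3% to 65.1%. The medians, in the same order, were 2.60%, 4.21% and 7.14% with at least 10 observations, 2.15%, 3.900% and 5.64% with 50, and 2.91%, 4.46% and 5.96% as means over CpGs with a coverage of at least 10. Replicate medians were below that of REST knockout cells in each case.

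Depth limits REST knockout values most: 451 bins fell short of 20 observations there, so most bins with 1 to 3 CpGs were not tested. Neighbouring bins share fragments. With 1 WG-BisSeq library there is no replicate of the REST knockout level.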
